A study of Mus musculus with 4 samples.

Results

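The genes described here are the members of the complexes that MLL and AF4 build and their close partners: Kmt2a, Men1, Psip1, Aff1, Aff4, Mllt1, Mllt3, Ell, Cdk9 and Dot1l. They were taken as the probe sets that the platform annotation assigns to exactly 1 gene, where that gene is 1 of these 10. This gave 25 probe sets of the 45101 on the array, and every gene had 2 or 3. The samples were 4 mouse RNA samples, each on 1 Affymetrix expression array, from a series titled as C57BL6 mice. For the mixed lineage leukemia, stem and precursor cells of the blood had been given both fusions, AF4-MLL together with MLL-AF4. For the acute lymphoblastic leukemia of proB type (proB ALL) and for the biphenotypic leukemia with B and T features (B/T BAL) they had been given AF4-MLL alone. The control was normal bone marrow. Leukemic marrow was taken from moribund mice several months later, typed by flow cytometry and not sorted. The sources used here do not give the age of the mice, the vector, the species of the fusion sequences or any pooling of animals. Every group held 1 array, so no value has a replicate error.

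MLL, the product of Kmt2a, is a histone methyltransferase that keeps Hox and other developmental genes active in blood stem cells. Menin (Men1) and LEDGF (Psip1) hold its N-terminal part on chromatin. AF4 (Aff1) and its relative Aff4 are scaffolds that join the acetyl-histone readers ENL (Mllt1) and AF9 (Mllt3), the elongation factor Ell and the kinase Cdk9 into a complex that releases paused RNA polymerase. ENL and AF9 also bind Dot1l, the methyltransferase that marks transcribed genes. A chromosome translocation of acute leukemia joins the N-terminal part of MLL to the C-terminal part of AF4 (MLL-AF4) and yields the reciprocal AF4-MLL. The probe sets of Kmt2a and Aff1 cannot tell fusion transcripts from the resident genes, and the positions of their probes were not used here.

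The upstream sequences of 4 of these genes are shown because the results below describe them most closely. By their brightest probe sets Kmt2a and Ell read above normal marrow in all 3 leukemias, a pattern held by 4 of the 23 tested member probe sets and by 21.8% of all tested, and Mllt1 and Mllt3 lay furthest below the other leukemias in the mixed lineage leukemia by theirs. Each sequence covers 250 bases before and 50 after the gene's start, from RefSeq on GRCm38.p6, written 5′ to 3′ on the gene's strand with CpG dinucleotides in capitals. They are Kmt2a at chr9:44881240-44881539 (minus strand), Ell at chr8:70539425-70539724 (plus strand), Mllt1 at chr17:56935339-56935638 (minus strand) and, of its 2 starts, Mllt3 at chr4:88033358-88033657 (minus strand).
Kmt2a: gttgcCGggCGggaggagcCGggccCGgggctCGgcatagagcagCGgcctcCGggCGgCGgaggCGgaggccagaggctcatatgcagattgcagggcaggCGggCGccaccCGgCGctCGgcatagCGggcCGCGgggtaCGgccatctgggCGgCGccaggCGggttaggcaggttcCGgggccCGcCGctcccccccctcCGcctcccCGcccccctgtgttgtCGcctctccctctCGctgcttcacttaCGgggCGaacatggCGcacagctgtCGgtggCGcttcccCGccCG
Ell: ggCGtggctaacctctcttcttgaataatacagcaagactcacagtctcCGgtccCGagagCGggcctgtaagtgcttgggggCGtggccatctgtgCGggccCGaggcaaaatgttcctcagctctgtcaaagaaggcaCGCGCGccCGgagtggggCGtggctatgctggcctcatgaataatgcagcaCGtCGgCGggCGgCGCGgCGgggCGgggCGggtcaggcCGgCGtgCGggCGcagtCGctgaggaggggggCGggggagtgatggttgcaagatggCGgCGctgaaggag
Mllt1: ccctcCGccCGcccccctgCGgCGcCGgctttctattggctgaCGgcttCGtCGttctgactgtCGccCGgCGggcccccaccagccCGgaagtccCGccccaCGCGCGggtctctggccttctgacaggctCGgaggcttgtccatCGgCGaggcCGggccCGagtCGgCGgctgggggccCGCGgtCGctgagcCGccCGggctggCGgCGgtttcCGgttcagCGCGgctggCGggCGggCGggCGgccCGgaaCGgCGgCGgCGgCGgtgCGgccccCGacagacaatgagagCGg
Mllt3: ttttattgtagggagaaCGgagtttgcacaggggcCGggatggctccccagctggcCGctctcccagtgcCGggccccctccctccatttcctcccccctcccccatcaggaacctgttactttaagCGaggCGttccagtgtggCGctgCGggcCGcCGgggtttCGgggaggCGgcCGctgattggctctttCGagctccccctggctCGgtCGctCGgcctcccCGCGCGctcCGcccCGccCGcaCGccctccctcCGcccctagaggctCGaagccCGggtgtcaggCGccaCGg

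The 4 windows held 36, 29, 46 and 29 CpG dinucleotides in the order shown, against a median of 7 over 32851 windows of the same length. The other start of Mllt3, at chr4:87806274-87806573 and not printed, held 4 CpG dinucleotides and no GGGCGG. RefSeq windows were matched for 9 of the 10 genes, with 13 windows in all. The GC-box letters GGGCGG, on both strands, occurred in 11 of the 13 windows, from 8 of 9 genes, against 35.7% of all windows. The letters CCAAT, on both strands, occurred in 7 of the 13 windows, from 4 genes (Cdk9, Men1, Mllt1 and Mllt3), against 37.4% of all windows. The letters CACGTG occurred in the window of Aff4 alone, against 7.15% of all windows. These matches describe letters in the windows and not binding sites.

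The arrays differed in ways that touch these values. Of all probe sets, 57.4% on the mixed lineage array lay above a floor of 189, the median of all signals, against 46.3% to 49.0% on the other arrays. For Actb, signal at the 3′ end over that at the 5′ end was 1.87 in normal marrow and 2.47 to 4.72 in the leukemias. Marker genes departed from the labels of both leukemias named for B-cell features. On the array labelled proB ALL, 3 of 9 early B-cell markers lay above the floor, against 8 in normal marrow and 4 on the mixed lineage array. Pax5 was below it on all 4 arrays, and Ebf1, Vpreb1, Igll1, Rag1 and Dntt were below it on the proB ALL array. The 8 measured natural killer and cytotoxic markers, with a summed signal of 180446 against 12768 in normal marrow, were all above the floor on that array. On the B/T BAL array Ebf1, Vpreb1 and Igll1 were also below the floor, and 6 of the 8 tested early B-cell markers were at least 2-fold lower than in normal marrow. The mixed lineage array likewise had 6 of the 8 at least 2-fold lower. The 2 that were higher in B/T BAL were Rag1 and Dntt, which T-cell precursors also use. T-cell markers summed to 3925 in normal marrow, 162982 in B/T BAL and 49091 in the proB ALL sample, with 9 and 4 of the 9 at least 2-fold higher in these leukemias. In the proB ALL sample Cd3e, Cd8a, Cd8b1, Cd4 and Ptcra were below the floor, and 2 markers were at least 2-fold lower than in normal marrow. Of the sum there, Thy1 gave 28959 and Cd3d 12582. Monocyte markers summed to 91284 on the mixed lineage array against 42512 in normal marrow. The 8 measured erythroid markers summed to 183243 in normal marrow and to 1226 to 2955 in the leukemias. In unsorted marrow, fewer cells of a type and less RNA per cell cannot be told apart, and the part of these shifts in the values of any gene below was not tested.

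Probe sets of 1 gene give a measure of how far probes disagree on the same RNA samples. That measure holds no spread between mice, samples or arrays. Differences are given on the scale log2(signal + 51.4), which understates changes of dim probe sets. The added constant is the signals' 25th percentile. Over 4031 to 4137 genes with at least 2 probe sets above the floor on both arrays compared, the differences from normal marrow of the 2 brightest lay a median of 0.46 to 0.49 apart. At the 90th percentile they lay 1.22 to 1.35 apart. Of the 25 probe sets, 23 exceeded the floor on at least 1 array and were tested with limma among 25177 probe sets. The exceptions were Aff4 1458959_at and Mllt1 1421060_at.

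Kmt2a had a higher signal in each leukemia than in normal marrow by its brightest probe set, and not by the other. Probe set 1427283_at read 1659.5 for the mixed lineage sample, 2869 for proB ALL, 4001 for B/T BAL and 1160.0 for normal marrow. Normal marrow was the lowest array and B/T BAL the highest, 3.45-fold above it, with proB ALL 2.47-fold and mixed lineage leukemia 1.43-fold above. Probe set 1452377_at, designed from the same source sequence, had 453, 1419, 1669 and 916 in the same order of samples. Here mixed lineage leukemia was the lowest array, and proB ALL and B/T BAL again lay above normal marrow, by 1.55-fold and 1.82-fold. Over the 3 leukemias the brightest probe set differed from normal marrow by 1.17 ± 0.77 on the log2 scale (SE, limma, adjusted p = 1.0), which did not pass the test.

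Men1, which encodes the scaffold menin, showed no single direction over its 3 probe sets. Probe set 1416347_at, the brightest, read 971 for the mixed lineage sample, 759 for proB ALL, 1498 for B/T BAL and 1289 for normal marrow, with normal marrow inside the range of the leukemias. Probe set 1416348_at, from the same source sequence, had 39.6, 207, 258 and 312, so that mixed lineage leukemia was below the floor and at least 1.66-fold under normal marrow. Probe set 1443826_x_at ran the other way, with 94.0, 300.4, 531 and 29.7, and its name marks it as open to cross-hybridisation. On it B/T BAL lay at least 2.81-fold and proB ALL at least 1.59-fold above normal marrow, which was below the floor.

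Psip1, which encodes the chromatin tether LEDGF, was below normal marrow in all 3 leukemias by 2 of its 3 probe sets. Probe set 1417166_at, the brightest, read 2777 for the mixed lineage sample, 4202 for proB ALL, 6439 for B/T BAL and 7015 for normal marrow. The mixed lineage leukemia was 2.53-fold below normal marrow, while B/T BAL was within 1.09-fold of it. Probe set 1442148_at had 316, 452, 865 and 1942, and all 3 leukemias were at least 2-fold lower (6.15-fold, 4.30-fold and 2.24-fold). Its difference over the leukemias was -1.85 ± 0.81 (SE, limma, unadjusted p = 0.049, adjusted p = 1.0). Probe set 1460403_at had 909, 2216, 2661 and 1680, with proB ALL and B/T BAL above normal marrow and mixed lineage leukemia below it. The order of the leukemias was the same on the 3 probe sets: mixed lineage lowest, proB ALL next and B/T BAL highest.

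**Figure D1:**
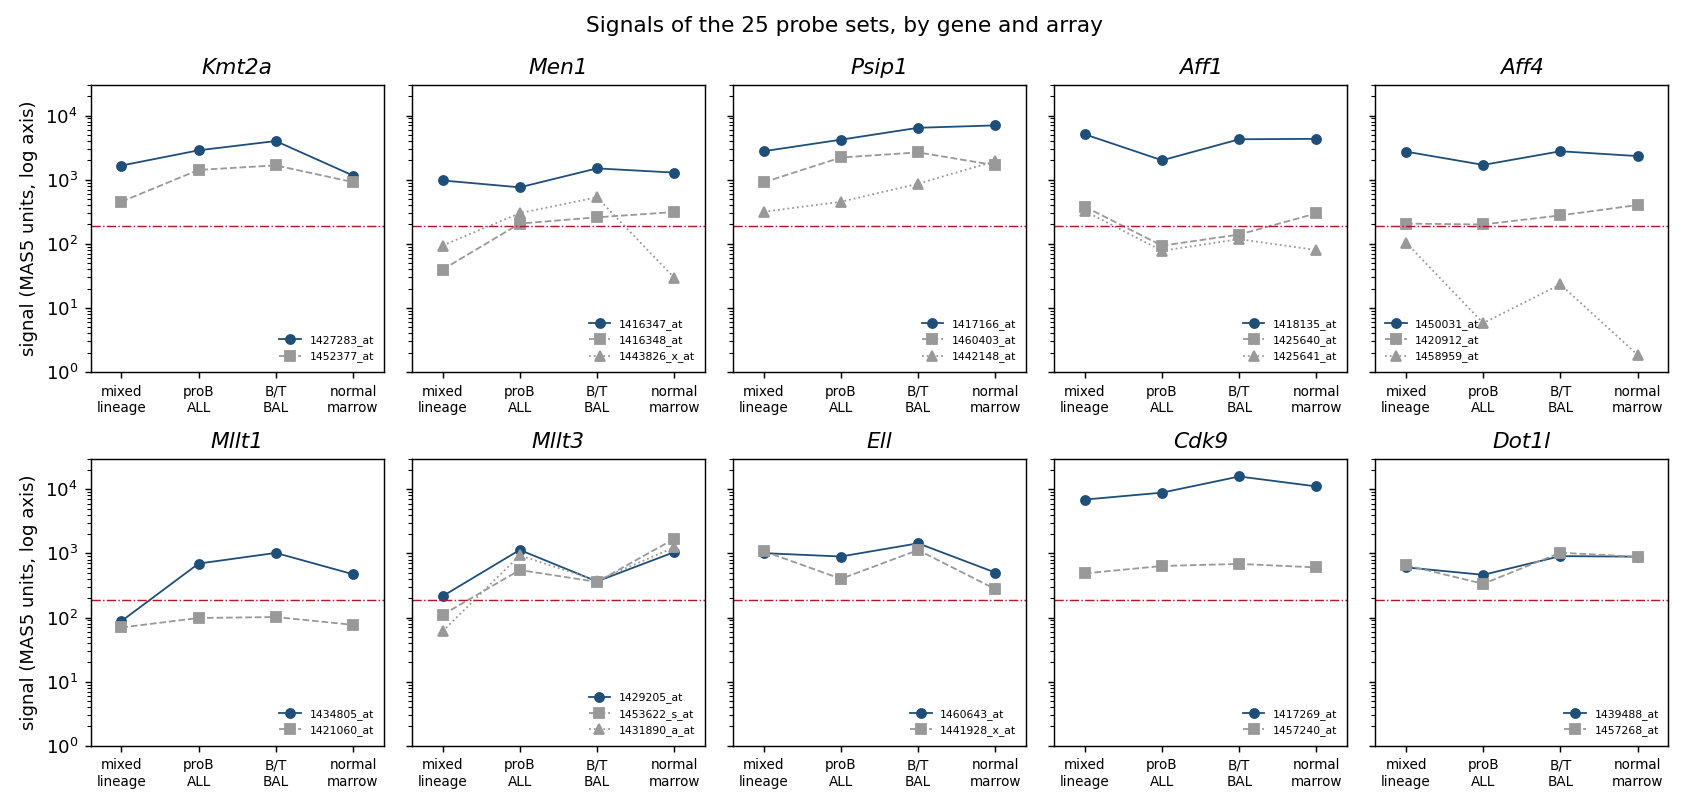
Signals of the 25 probe sets on the 4 arrays (MAS5 units, log axis), 1 panel per gene and 1 marker shape per probe set. Blue marks the brightest probe set, lines link the points of 1 probe set and imply no order of samples, and the red line is the floor of 189. Mllt3 in mixed lineage leukemia lies at 61.1 to 215, under its signals of 1046 to 1681 in normal marrow.

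Aff1, the AF4 gene, was lowest in proB ALL and highest in mixed lineage leukemia by its brightest probe set. Probe set 1418135_at read 5091 for the mixed lineage sample, 2004 for proB ALL, 4263 for B/T BAL and 4329 for normal marrow. Mixed lineage leukemia, B/T BAL and normal marrow lay within 1.19-fold of one another, and proB ALL was 2.16-fold below normal marrow. The 2 other probe sets, which share a source sequence, were dim. Probe set 1425640_at had 378, 93.3, 139 and 298, and probe set 1425641_at had 323, 77.8, 118 and 79.7. Mixed lineage leukemia was the highest of the 3 leukemias on all 3 probe sets, by at least 2.00-fold over both others on 1425640_at and at least 1.71-fold on 1425641_at. No difference of Aff1 between the leukemia with both fusions and the leukemias with AF4-MLL alone passed limma's test (brightest probe set 0.79 ± 0.65, SE, adjusted p = 0.571).

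Aff4, the related scaffold, stayed near normal marrow by its brightest probe set. Probe set 1450031_at read 2736 for the mixed lineage sample, 1698 for proB ALL, 2772 for B/T BAL and 2332 for normal marrow. Normal marrow lay inside the range of the leukemias, and no array differed from it by more than 1.37-fold. Probe set 1420912_at, from the same source sequence, had 206, 199.96, 277 and 402, with normal marrow highest, and probe set 1458959_at was below the floor on all 4 arrays (1.86 to 104).

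Both acetyl-histone reader genes were lowest in mixed lineage leukemia. For Mllt1, which encodes ENL, probe set 1434805_at read 88.0 for the mixed lineage sample, 694 for proB ALL, 1019 for B/T BAL and 474 for normal marrow. The mixed lineage array was below the floor and at least 2.51-fold under normal marrow, while B/T BAL lay 2.15-fold above it. Against the leukemias with AF4-MLL alone the mixed lineage leukemia differed by -2.68 ± 0.74 (SE, limma, unadjusted p = 0.016, adjusted p = 0.207), which did not pass. The other probe set, 1421060_at, was below the floor on all 4 arrays (70.0 to 102) and gives no direction.

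For Mllt3, which encodes AF9, mixed lineage leukemia and B/T BAL lay below normal marrow on all 3 probe sets. Probe set 1429205_at read 215 for the mixed lineage sample, 1133 for proB ALL, 365 for B/T BAL and 1046 for normal marrow, and probe set 1431890_a_at had 61.1, 932, 377 and 1238. On these 2 probe sets proB ALL was within 1.33-fold of normal marrow. On 1453622_s_at, with 110, 550 and 359 against 1681, proB ALL was also lower, by 3.05-fold. Mixed lineage leukemia was 4.86-fold, at least 6.56-fold and at least 8.91-fold below normal marrow on the 3 probe sets, and B/T BAL 2.86-fold, 3.29-fold and 4.68-fold. The last probe set gave -2.34 ± 0.91 over the 3 leukemias (SE, limma, unadjusted p = 0.031, adjusted p = 1.0).

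Ell, an elongation factor and a fusion partner of MLL in acute myeloid leukemia, was above normal marrow in all 3 leukemias on both probe sets. Probe set 1460643_at read 1009 for the mixed lineage sample, 895 for proB ALL, 1437 for B/T BAL and 503 for normal marrow. The leukemias were 2.01-fold, 1.78-fold and 2.86-fold higher. All 3 lay above the normal array, as they did on 21.8% of all tested probe sets. Probe set 1441928_x_at, whose name marks it as open to cross-hybridisation, had 1085, 401, 1128 and 278, or 3.91-fold, 1.45-fold and 4.06-fold higher. The brightest probe set differed by 1.04 ± 0.74 over the leukemias and the other by 1.36 ± 0.84 (SE, limma, adjusted p = 1.0 for both). Ell2, a relative that can take its place in the elongation complex, had the opposite pattern by its brightest probe set, 1450744_at: 887, 308 and 246 in the leukemias against 5703 in normal marrow (limma adjusted p = 0.392). Its other probe set, 1458569_at, was below the floor except in mixed lineage leukemia (221).

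Cdk9, the kinase of the elongation complex, and Dot1l each had normal marrow inside the range of the leukemias. Cdk9 probe set 1417269_at read 6913 for the mixed lineage sample, 8863 for proB ALL, 15828 for B/T BAL and 11082 for normal marrow. No leukemia differed from normal marrow by more than 1.60-fold, and B/T BAL was 2.29-fold above mixed lineage leukemia. Its other probe set, 1457240_at, had 488 to 685 on all 4 arrays. Dot1l probe set 1439488_at had 606, 463, 907 and 889, and 1457268_at had 655, 335, 1026 and 887, with the same order of samples on both. B/T BAL and normal marrow lay within 1.16-fold of each other on both, and proB ALL was the lowest array, 1.92-fold and 2.64-fold below normal marrow.

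**Figure D2:**
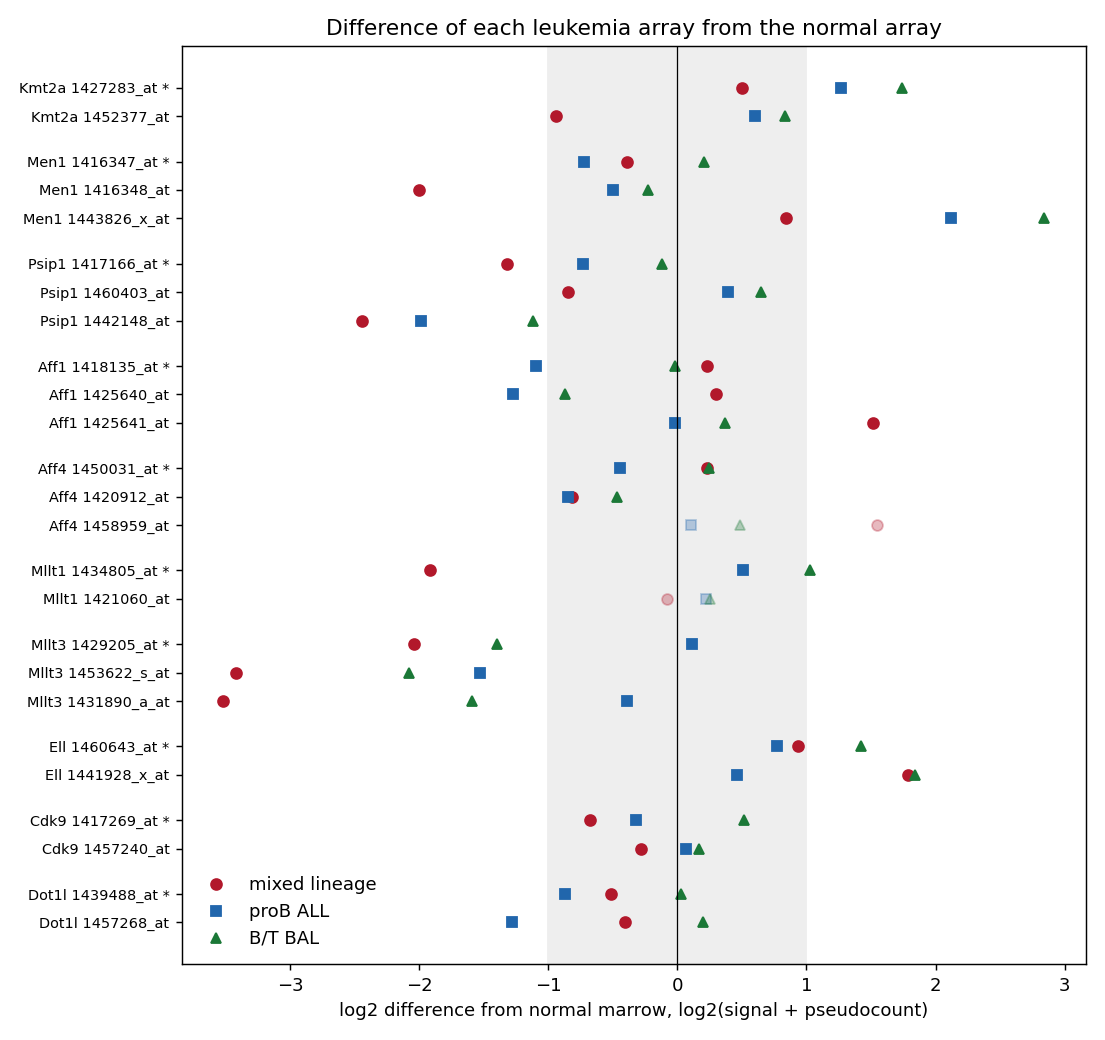
Log2 difference of each leukemia array from the normal array for the 25 probe sets, with 1 symbol per leukemia; asterisks mark the brightest probe set of each gene, pale symbols the 2 probe sets below the floor on all arrays, and the grey band differences under 2-fold. Both probe sets of Ell lie right of 0 in all 3 leukemias, and the 3 probe sets of Mllt3 reach -3.52 in mixed lineage leukemia.

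The 23 tested probe sets were counted past 2-fold on the log2 scale given above, against the share of all tested probe sets past it. In mixed lineage leukemia 2 probe sets were at least 2-fold higher (background 20.9%) and 7 at least 2-fold lower (background 15.3%), the latter of Men1, Psip1, Mllt1 and Mllt3. For proB ALL the counts were 2 higher (background 13.3%) and 5 lower (background 17.7%). For B/T BAL they were 5 higher (background 16.3%) and 4 lower (background 16.8%). The 3 comparisons share the normal array, and probe sets of 1 gene are not independent. All 3 leukemias were above normal marrow on 4 probe sets, of Kmt2a, Ell and Men1 (background 21.8%), and below it on 6 (background 19.0%). The mixed lineage leukemia lay on 1 side of normal marrow and both other leukemias on the other on 6 (background 28.8%). All 3 were at least 2-fold lower on 2 probe sets, 1 of Psip1 and 1 of Mllt3 (background 4.36%), and at least 2-fold higher on 0 (background 2.22%). The median difference of the 10 brightest probe sets was -0.45 for the mixed lineage sample, -0.38 with proB ALL and 0.23 with B/T BAL, against 0.08, -0.11 and 0.05 over 14012 genes. With limma 0 of the 23 passed an adjusted p of 0.05 in either direction, where 0 probe sets on the array were higher (0.0%) and 18 lower (0.0715%). At an unadjusted p under 0.05, 0 of the 23 were higher (background 0.918%) and 2 lower (background 2.62%).

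Among the leukemias, mixed lineage leukemia tended to lie low and B/T BAL above proB ALL. The mixed lineage array was below both others on 13 of 23 probe sets, of Kmt2a, Men1, Psip1, Mllt1, Mllt3 and Cdk9 (background 34.3%). By the brightest probe set of each gene it was below both on 5 of 10 (background over 14012 genes 34.9%). By at least 2-fold it was below both on 7 of the 23 (background 10.1%). With signals under the floor raised to it, this count was 3 (background 7.15%). Of the 7, only that of Mllt1 was the brightest of its gene. The mixed lineage array was above both on 3, all of Aff1 (background 42.8%), and on 5 under quantile normalization or scaling to the 75th percentile (backgrounds 38.4% and 49.7%). By at least 2-fold it was above both on 2 of these (background 18.4%), and on 0 after quantile normalization. With the testing floor raised to the 75th percentile, 17 were tested. On these the mixed lineage array was below both others on 10 (background 42.5%) and above both on 1 (background 32.0%). B/T BAL was above proB ALL on 20 of 23 (background 56.9%), and below it on 3, the probe sets of Mllt3 (background 43.1%). By at least 2-fold it was above on 3, of Aff1, Dot1l and Ell (background 15.2%), and below on 2, both of Mllt3 (background 11.3%). Between both fusions and AF4-MLL alone, 0 of 23 passed limma's adjusted threshold, as did 0 probe sets in either direction on the array (0.0%). At an unadjusted p under 0.05, 3 of the 23 were lower in mixed lineage leukemia, 1 each of Mllt1, Mllt3 and Kmt2a (background 5.34%), and 0 higher (background 11.8%). In this comparison the fusion carried and the immunophenotype cannot be told apart.

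**Figure D3:**
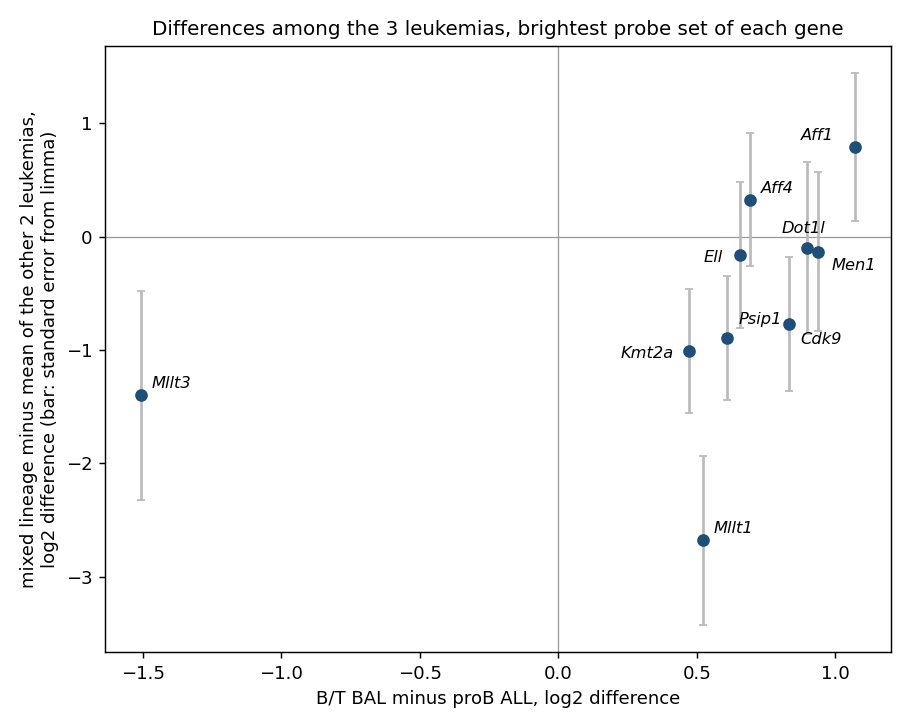
Difference of mixed lineage leukemia from the mean of the other 2 leukemias (vertical, log2, bars are limma standard errors) against the difference of B/T BAL from proB ALL (horizontal, log2), for the brightest probe set of each gene. Mllt1 is lowest at -2.68, Aff1 highest at 0.79, and Mllt3 alone lies left of 0, at -1.51.

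Other genes of the same machinery were read by the brightest probe set of each gene. Of 19 MLL and COMPASS family genes, which encode the subunits and relatives of this methyltransferase, 0 were at least 2-fold higher and 4 lower in mixed lineage leukemia (background over 14012 genes 18.8% and 15.2%). For proB ALL the counts were 0 and 2 (background 11.3% and 18.7%), while B/T BAL had 2 and 0 (background 15.4% and 17.7%). The largest mean differences were those of Rbbp5, a core subunit, with 1151, 1677 and 1928 against 3057 in normal marrow, Kmt2d, a sister methyltransferase, with 3072, 4562 and 5429 against 2270, and Paxip1, a partner of the sister enzymes, with 1814, 1785 and 3230 against 3772. Of 18 measured AF4, ELL and P-TEFb elongation genes, the mixed lineage sample had 1 at least 2-fold up on normal marrow and 7 at least 2-fold below it. The counts were 3 and 1 with proB ALL and 4 and 1 with B/T BAL. Beside Ell2, the largest were Aff2, an AF4 relative, with 258 in mixed lineage leukemia and signals below the floor elsewhere, and Eaf2, a partner of Ell, with 270 in normal marrow and signals below the floor in the leukemias. Their medians were -0.74, 0.04 and 0.17.

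The 6 genes of the PAF complex, which travels with RNA polymerase and binds MLL, had medians of 0.23, 0.35 and 0.16. Paf1 itself had 1135, 969 and 1572 against 515 in normal marrow, Leo1 had 689, 659 and 695 against 563, and Cdc73 had 3949, 5082 and 2521 against 3123. Among 10 relatives of DOT1L, YEATS and LEDGF proteins, medians were -0.69, -0.15 and 0.27. Mllt6 (AF17, a partner of Dot1l) had 4306 and 3159 in proB ALL and B/T BAL against 696 in mixed lineage leukemia and 988 in normal marrow, and its 2 dimmer probe sets reached at most 347. Yeats2, which encodes another acetyl-histone reader, had 857, 1451 and 1616 against 521. On its other probe set, 1459108_a_at, it had 435, 880 and 1711 against 463, with mixed lineage leukemia slightly below normal marrow. Cbx8, a Polycomb protein that binds ENL and AF9, had 70.1, 330 and 349 against 444. Of these 10 genes 8 were below both other leukemias in mixed lineage leukemia (background 34.9%), as were 9 of the 19 MLL family genes, 11 of the 18 elongation genes, 2 of the 6 PAF complex genes, 1 of the 2 measured ligases of AF4 turnover and 4 of the 17 target genes described next. Those ligases were Siah1a, with 1092, 1035 and 1011 against 2004, and Siah2, with 280, 340 and 465 against 353. Siah1a probe set 1449733_s_at went the other way, with 1165, 933 and 884 against 739. On 1420106_at Siah1a had 1106, 670 and 744 against 853. In each of these lists 0 genes passed limma's adjusted threshold in either comparison (background by gene 0.0% higher and 0.107% lower against normal marrow, 0.0% in both directions among leukemias).

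Among 17 tested genes known as targets of MLL or its fusions, the mixed lineage sample had 2 at least 2-fold above normal marrow and 5 at least 2-fold below it (background 18.8% and 15.2%). The counts were 1 and 4 with proB ALL (background 11.3% and 18.7%) and 4 and 8 with B/T BAL (background 15.4% and 17.7%), and 0 passed limma's adjusted threshold. Hoxa9 had 320, 171 and 269 against 743 in normal marrow by its brightest probe set, while its other probe set had 512, 295 and 200 against 280. Meis1, its cofactor, had 385, 45.8 and 34.6 against 282 by its brightest probe set, while probe set 1443260_at had 25.3, 71.8 and 201 against 296. Mef2c, a transcription factor of myeloid and lymphoid precursors, had 733, 1259 and 174 against 1525, with B/T BAL the lowest leukemia on all 5 of its probe sets. Among the leukemias, 9 of the 17 were highest in the mixed lineage sample (background 42.8%), 4 of them by at least 2-fold over both others (background 18.9%). In limma's comparison of both fusions with AF4-MLL alone, 4 were higher at an unadjusted p under 0.05 (background 12.5%) and 1, Myc, was lower (background 5.67%). The 4 were Meis1 at 2.25 ± 0.57, Hoxa5 at 2.31 ± 0.88, Eya1 at 1.87 ± 0.62 and Hoxa10 at 1.70 ± 0.62 (log2 difference ± SE), with adjusted p of 0.193 to 0.288. Hoxa5, Eya1, Hoxa10 and Myc were named after their values were seen. By the same probe sets, Meis1, Eya1 and Hoxa10 were below the floor in both proB ALL and B/T BAL. Eya1 had 313 in mixed lineage leukemia against 72.4 and 28.9 there, and Hoxa10 had 306 against 41.4 and 80.0. Hoxa5 had 695 against 42.1 in proB ALL, below the floor, and 192 in B/T BAL, close to it. The sizes and SE for the 4 higher genes therefore rest on signals near or below the floor in those leukemias. Hoxa5 was read on 1443803_x_at, whose name marks it as open to cross-hybridisation. Hoxa5, Eya1 and Hoxa10 have 2, 3 and 2 probe sets, and only the brightest of each is given.

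**Figure D4:**
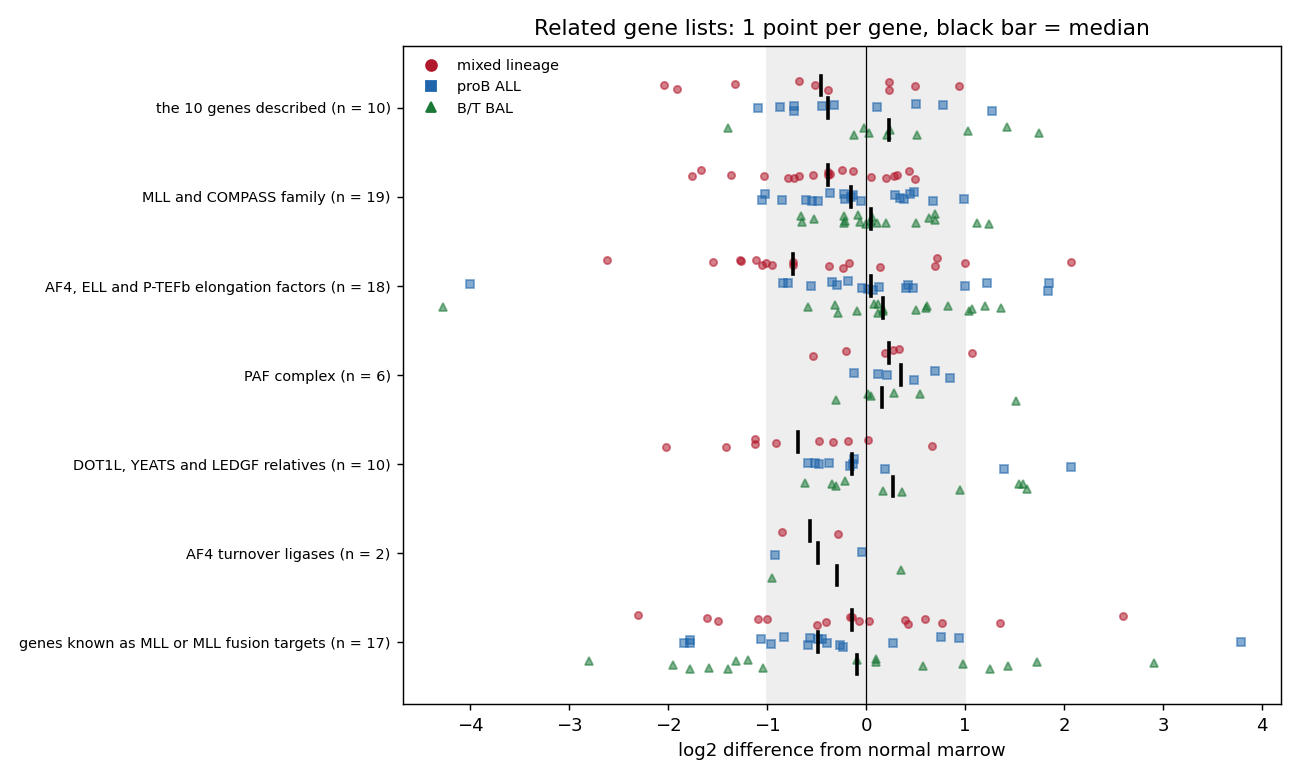
Log2 difference from normal marrow of the 10 genes and of 6 related lists, 1 point per gene by its brightest probe set, 1 symbol per leukemia, with the median as a black bar and differences under 2-fold in grey. The elongation list has its median at -0.74 in mixed lineage leukemia and near 0 in proB ALL and B/T BAL, and its lowest point in each leukemia is Ell2.

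The patterns of Kmt2a and Aff1 over the 4 arrays were shared with many genes. After each gene's own mean was removed, 493 of 14011 other genes lay within 0.5 of Kmt2a on every array, the closest being Ddx19b, Spata13 and Nsrp1, with largest gaps of 0.05, 0.05 and 0.08. For Aff1 there were 947 such genes, the closest being Bcar1, Amotl2 and Gm36793, each with a largest gap of 0.07. These gaps span 4 arrays that share 1 scaling, and they describe likeness of signal alone.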

How the data were processed

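The values used were the deposited intensity values, 1 linear signal per probe set and array, computed by the authors. MAS5 is the tool that the submitters' processing notes name, and the sources used here give neither version nor settings. Biotin-labelled RNA was prepared from 2 µg of total RNA, per the labels' protocols. The trimmed mean after removal of 2% from each end was 1000.0 on each array, so the arrays share 1 scale. Of 45101 probe sets, 64 controls were left out, 34945 carried 1 gene symbol, 932 several and 9160 none in the annotation used here; the last 2 kinds were left out. The number of arrays, not read depth, limits precision.

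Signals were analysed as log2(signal + 51.4). Probe sets above the floor of 189 on at least 1 array were tested with limma 3.58.1 in R 4.3.3 (lmFit, eBayes with an intensity trend) with Benjamini-Hochberg adjustment over all of them. Leukemia against normal marrow had 2 residual degrees of freedom, from the 3 leukemias, the single normal array being taken to vary as they do. Both fusions against AF4-MLL alone had 1. The p-values therefore rest on how far leukemias of unlike immunophenotype differ. A fold with its dimmer side at or under the floor uses the floor and reads "at least". No fold is given with both sides under it. The limma step was tested on simulated data. Other scalings, pseudocounts, filters, probe set summaries and the omission of each leukemia were tried. All member probe sets are given; of each related list, up to 3 genes with the largest mean difference over the leukemias are named. The members and lists were chosen with earlier results of these data known.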

Additional observations from a re-analysis of the deposited data

Results flagged for a closer look

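On 6 of the 23 tested probe sets, against 28.8% of all 25177 tested, both leukemias with AF4-MLL alone lay on 1 side of normal marrow and the mixed lineage leukemia on the other. This count was near that share. It was 4 (background 28.4%) after quantile normalization and 5 (background 28.9%) with scaling to the 75th percentile. The difference of mixed lineage leukemia from normal marrow was -1.91 on the log2 scale for Mllt1 1434805_at, against 0.51 with proB ALL and 1.03 with B/T BAL. For Kmt2a 1452377_at it was -0.94 against 0.60 and 0.83, for Psip1 1460403_at -0.85 against 0.39 and 0.65, and for Cdk9 1457240_at -0.28 against 0.07 and 0.17. For Aff1 the mixed lineage leukemia lay above normal marrow, by 0.23 on 1418135_at against -1.09 and -0.02, and by 0.30 on 1425640_at against -1.27 and -0.87. After quantile normalization B/T BAL also lay above normal marrow on 1418135_at, at 0.045, which no longer held the pattern. The 3 differences of a probe set share the normal array. The median gap between probe sets of 1 gene was 0.46 to 0.49. At least 1 of the 3 differences is smaller in size than this for Psip1, Cdk9 and both Aff1 probe sets. The difference of mixed lineage leukemia from the other 2 leukemias did not pass limma's test on any of the 6, with adjusted p of 0.207 for Mllt1, 0.276 for Kmt2a, 0.305 for Psip1, 0.791 for Cdk9, and 0.571 and 0.379 for the Aff1 probe sets.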

How the results depend on the processing

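No paired analysis was possible because each group held 1 array. No member gene's brightest probe set passed the adjusted threshold under any of the 15 alternatives against normal marrow, or under the 12 that could be run between both fusions and AF4-MLL alone. Over all probe sets, 18 were lower in leukemia than in normal marrow. The count was 46 with a pseudocount at the 50th percentile, 37 with scaling to the 75th percentile and 67 with robust eBayes. It was 0 with a pseudocount of 16, quantile normalization, signals raised to the floor, 1 probe set per gene, the mean over probe sets, no filter, a filter at the 75th percentile, or no trend. Leaving out a leukemia gave 0 to 170 lower and 0 to 13 higher. Without mixed lineage leukemia 0 were lower, without proB ALL 116, and without B/T BAL 170. Between both fusions and AF4-MLL alone, raising signals to the floor gave 4333 higher and 91 lower probe sets; both other leukemias were at the floor, and so equal, on 4070 of the higher and 0 of the lower. The cause of the rest was not tested. No leukemia could be left out there with a test.

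Counts of member probe sets at least 2-fold higher or lower (2 and 7 for the mixed lineage sample, 2 and 5 with proB ALL, 5 and 4 with B/T BAL) were also recomputed. With 1 probe set per gene they were 0 and 3, 1 and 1, and 3 and 1 of 10 genes, and with the mean over probe sets 1 and 2, 0 and 1, and 2 and 1. Without probe sets ending in _x_at, _s_at or _a_at, the higher counts were 1, 1 and 3, and 2 were lower in B/T BAL. The higher count was 1 in mixed lineage leukemia with a pseudocount at the 50th percentile, with signals raised to the floor and with the filter at the 75th percentile, and 1 in proB ALL with the last 2. Scaling to the 75th percentile shifted the median of all probe sets by 0.15 and quantile normalization by -0.14 in mixed lineage leukemia. Of all probe sets at least 2-fold from normal marrow there, 57.8% were higher, against 43.8% after quantile normalization.

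Of 270 values of single genes under alternatives, 16 turned sign, none of a difference that had passed; the cause was not tested. Against normal marrow these were Mllt1 at 0.0071 (50th percentile pseudocount), 0.13 (floor) and 0.0028 (mean over probe sets) and Men1 at 0.24 (mean over probe sets). Leaving out 1 leukemia in turn gave -0.70 to 0.77 for Mllt1 (positive without mixed lineage leukemia), -0.50 to 0.10 for Cdk9 (likewise), -0.56 to 0.10 for Aff1 (positive without proB ALL) and -0.11 to 0.24 for Aff4 (negative without mixed lineage leukemia, at -0.10, or without B/T BAL). Among the leukemias they were Men1 at 0.081 and 0.066 and Ell at 0.057 and 0.037 (quantile and 75th percentile scaling), Dot1l at 0.10 (75th percentile scaling), and Dot1l at 0.017 and Ell at 0.24 (mean over probe sets).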
